A study of Mus musculus with 6 samples.

Results

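The genes described here are 9 members of the Six-Eya-Dach network of mouse, Six2, Six4, Six5, Eya1, Eya2, Eya3, Eya4, Dach1 and Dach2. They were taken by gene symbol, as a list drawn up with earlier results of these data known but with no threshold on a measured value, from the 53801 genes counted in E12.5 maxillary prominences. RNA was sequenced from 3 WT samples and 3 samples of Wnt1cre; Rosa26Dlx2/- embryos (Dlx2OE), all at embryonic day 12.5. The Rosa26 allele was made in C57BL/6J mice and the WT mice bought were C57BL/6J. The labels do not say whether WT embryos carried an allele of the cross or name the strain of Wnt1cre. In Dlx2OE embryos a Flag-tagged Dlx2 behind the CAG promoter, held off by a stop cassette at Rosa26, was released by Cre from Wnt1cre. The comparison asked how the transcriptome of the maxillary process changes when Dlx2 is overexpressed in the neural crest.

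The Wnt1cre driver is active in neural crest and its descendants, which form most of the facial mesenchyme, and not in surface epithelium, muscle, endothelium or blood. The prominences were taken whole, so all of these cells contributed RNA. In such bulk samples, fewer cells of a type and less RNA per cell cannot be told apart. The labels name 7 littermates as donors of the RNA, whereas the methods of the study name 6. Neither says how the embryos were divided among the samples, so the p-values measure the spread between these samples, part of which may be technical.

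Six-family proteins are homeodomain transcription factors that bind DNA. Eya proteins do not bind DNA themselves but join Six-family proteins as coactivators and carry a phosphatase domain, and Dach proteins, related to the Ski oncoproteins, act mainly as corepressors. With Pax factors upstream they form a network first described in the fly eye that recurs in placodes, kidney, muscle and craniofacial mesenchyme. In the face, Six2 marks mesenchyme derived from the neural crest, whereas Eya1 and its homologs are expressed in placodes, ectoderm and mesenchyme.

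In Dlx2OE embryos, 2 of the 9 members passed an adjusted p of 0.05, and both fell, beside 6.45% of all tested genes in either direction. Six2 was reduced to 0.471 of its WT level and Eya4 to 0.613 of its WT level, though the call of Eya4 was kept in only 6 of 14 alternatives. Eya1 was lower by a smaller amount that did not pass, and Six5, Eya3 and Dach2 were measured slightly higher without passing. Six2 remained the most abundant member per kb of exon in both genotypes.

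Six2 carried the clearest difference, and the stretch before its start is shown so that its base composition and the motifs searched can be read against it. The sequence was taken from RefSeq (GRCm38.p6) on the reverse strand at chr17:85688275-85688504, 5′ to 3′, and ends next to the first base that GENCODE M21 assigns to the gene. It has no capitals, since neither motif searched occurs in it.

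Six2 upstream: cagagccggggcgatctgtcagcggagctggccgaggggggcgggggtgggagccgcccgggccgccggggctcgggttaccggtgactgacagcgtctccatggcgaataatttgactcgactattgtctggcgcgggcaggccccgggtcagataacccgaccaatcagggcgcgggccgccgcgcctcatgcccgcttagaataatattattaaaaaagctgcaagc

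These 230 bases held 24 CpG dinucleotides and had a GC content of 64.8%, against a median of 52.7% over all promoter windows. Those windows also include the 50 bases after each start, so the stretches compared are not alike. The homeodomain core TAATTA and the MEF3 core TCAGGTT, which Six-family proteins bind, were searched on both strands in windows from 250 bases before to 50 after each RefSeq start. Windows were matched for 7 of the 9 members, 10 windows in all. TAATTA was in 0 of them and in 5.29% of all 32851 windows. TCAGGTT was in 1 of the 10, a Six4 window, and in 4.07% of all windows. The Six4 match lay on the reverse orientation, inside the gene body that GENCODE M21 assigns to Six4. It is printed from chr12:73113325-73113353 on the reverse strand, and its core is in capitals.

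Six4 match: ggcctgggggaAACCTGAtcggccagatc

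A match of these letters is a description of the window and not a bound site.

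The labels were checked with Dlx2, whose mean rose 3.03-fold (log2 fold change 1.60, SE 0.118, adjusted p = 0.00241). Endogenous transcripts and those of the Rosa26 allele cannot be told apart in these counts. Counts on genes ranged from 30332754 to 31308813 in WT and from 26155500 to 30570784 in Dlx2OE samples. Reads that the counting assigned to no feature made up 5.03% to 5.43% in WT and 5.75% and 7.82% in Dlx2OE samples 1 and 2. In Dlx2OE sample 3, which stood apart, they made up 14.7%. Whether these reads lay inside or outside genes cannot be told from the counts. After the filter on low counts 17514 genes were tested, all 9 members among them. Over all tested genes 1130 passed an adjusted p of 0.05, which is 6.45%, and 606 passed as lower in Dlx2OE, which is 3.46%. The members held between 108 and 8773 counts per sample, far above the floor of 3 counts, and their exons overlap no exon of another gene (0% of exon length).

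Markers fixed for the tissues a maxillary sample can hold were summed in each sample. The cranial mesenchyme list, with Prrx1, Twist1, Pdgfra and collagen I among its 8 genes, summed to 2625 to 3254 CPM in WT. It summed to 3304 to 3544 CPM in Dlx2OE samples, with 7 genes measured higher and 1 lower. Of the 8, 1 passed, Twist1, which was higher. The lower gene, Alx1, had 72.4, 61.3 and 63.8 CPM in WT and 97.2, 23.5 and 19.5 CPM in Dlx2OE samples (adjusted p = 0.568 by edgeR). The surface epithelium list summed to 662 to 1178 CPM in WT and 525 to 1654 CPM in Dlx2OE samples, with 3 of 8 genes measured higher and 5 lower. The 2 that passed, the simple keratins Krt8 and Krt18, were lower, while the basal keratin Krt5 was higher in every Dlx2OE sample than in any WT sample but did not pass (log2 fold change 1.91, adjusted p = 0.0792). The skeletal muscle list ran from 115 to 209 CPM in WT and from 64.8 to 123 CPM in Dlx2OE samples. The neuron list ran from 81.1 to 341 CPM and from 199 to 1533 CPM, with all 8 genes higher and 0 passed, and Dlx2OE sample 3 had the highest sum. By edgeR, 4 of the neuron genes had an unadjusted p under 0.05, and DESeq2 called 1, Pou4f1, beside 29.5% and 13.4% of all genes. In the muscle list 1 gene was measured higher and 7 lower, and 0 of 8 passed. Those at an unadjusted p under 0.05 were 3, all lower. DESeq2 called 1, Tnnt1, also lower, and the shares of all genes are the same 29.5% and 13.4%.

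**Figure D1:**
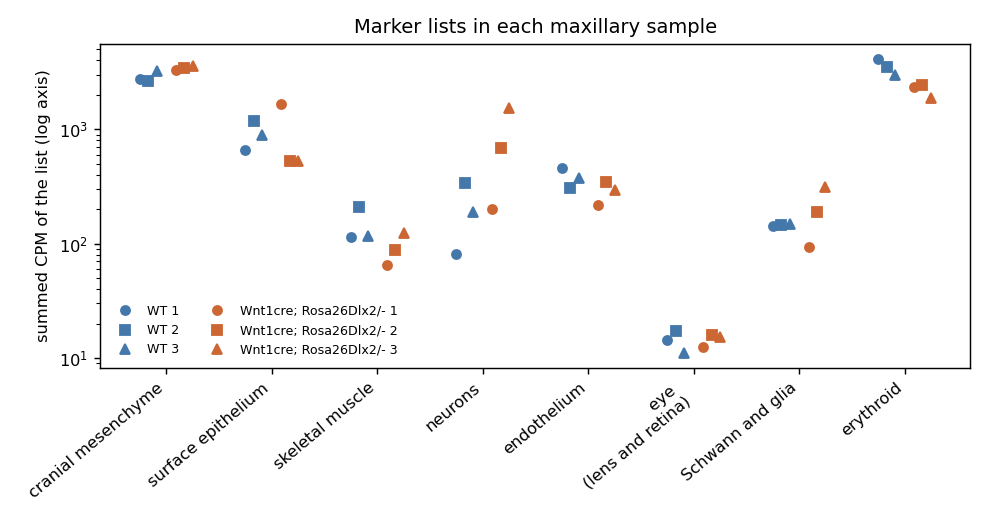
Summed TMM-scaled CPM of 8 marker lists (log axis) in each of the 3 WT and 3 Dlx2OE samples, with 1 symbol shape per replicate number. The genotypes separated for the mesenchyme list, which was higher in Dlx2OE, and the erythroid list, which was lower, and overlapped for the others, with Dlx2OE sample 3 highest for neurons at 1533 CPM.

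Endothelial genes summed to 307 to 458 CPM in WT and 217 to 343 CPM in Dlx2OE samples, with all 8 genes measured lower. Of these 1 passed, Emcn, 3 had an unadjusted p under 0.05 and DESeq2 called 3, the latter counts beside 29.5% and 13.4% of all genes. Schwann cell and glial genes summed to 141 to 148 CPM and 93.2 to 316 CPM, with 0 of 5 tested genes past edgeR's test, 1 at an unadjusted p under 0.05 and 0 called by DESeq2. Erythroid genes summed to 3009 to 4142 CPM in WT and 1884 to 2435 CPM in Dlx2OE samples, with 2 of 6 passed, both lower. The eye list was low in both genotypes, at 11.1 to 17.4 and 12.5 to 16.0 CPM, and 2 of its 8 genes did not exceed 3 counts in any sample. Of the 4 eye genes tested 1 passed, Pmel, which was higher. The samples therefore held the markers of facial mesenchyme named by their label, together with markers of epithelium, vessels, blood and nerve. The mesenchyme and erythroid sums did not overlap between genotypes, the mesenchyme sums by a narrow gap (3254 and 3304 CPM), and these sums were not tested. The neuron sum and the share of reads assigned to no feature were both highest in Dlx2OE sample 3. The part of any of these in the levels of the members was not tested. Six2 and Eya4 are set against the mesenchyme sum below, as a description only.

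Six2 (ENSMUSG00000024134) lies on chromosome 17 from 85684277 to 85688274 on the reverse strand of GRCm38 and has 2 exons in its longest coding transcript. It had read counts of 7015, 8571 and 8773 (WT 1 to 3) against 3357, 3948 and 3810 (Dlx2OE 1 to 3). Every Dlx2OE sample was below every WT sample by a wide margin. Its mean of 268.5 ± 25.0 CPM in WT was reduced to 126.6 ± 13.7 CPM (SD, n = 3 each). On the log2 scale it fell by 1.09 (SE 0.123, 95% interval of the log2 fold change -1.37 to -0.80, adjusted p = 0.00802 by edgeR's quasi-likelihood test), and Six2 ranked 46 of all genes by p. Six2 was the only member that also passed the threshold of the study's methods, with a log2 fold change beyond 1 in size, which 1.62% of all genes passed as lower. The call held in 14 of 14 alternatives, with a largest adjusted p of 0.0442 without WT sample 2. Without Dlx2OE sample 3 the log2 fold change was -1.17 (adjusted p = 0.0137).

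The fall of Six2 was set beside the mesenchyme markers of the same libraries. Six2 equalled 8.74%, 10.8% and 8.65% of the summed mesenchyme list in WT samples 1 to 3. It equalled 3.43%, 3.65% and 3.97% in Dlx2OE samples. The ratio of the means was 0.391, and the genotypes did not overlap. The summed mesenchyme markers were themselves higher in Dlx2OE samples, which puts this ratio below the 0.471 of Six2 alone. The sum is a level of RNA and no measure of cell number, so the ratio is a description.

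Six4 (ENSMUSG00000034460), on chromosome 12 from 73099609 to 73113456 on the reverse strand, encodes a paralog of Six2 in muscle progenitors and other tissues. Its read counts were 1624, 1414 and 1471 (WT 1 to 3) against 1153, 1601 and 1350 (Dlx2OE 1 to 3). Dlx2OE sample 1 was lowest, and the other Dlx2OE samples fell inside the WT range of 46.9 to 55.5 CPM. Its log2 fold change was -0.10 (SE 0.132, 95% interval -0.40 to 0.21, adjusted p = 0.643).

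Six5 (ENSMUSG00000040841), on chromosome 7 from 19094594 to 19098549 on the forward strand, neighbors the myotonic dystrophy locus and is expressed widely. Reads counted on it were 1568, 1775 and 1938 (WT 1 to 3) against 1886, 1936 and 1698 (Dlx2OE 1 to 3). Its pooled SD within genotypes on the log2 scale was the smallest of the members, with levels of 58.2 ± 4.33 CPM in WT and 62.7 ± 1.00 CPM in Dlx2OE samples (SD, n = 3 each), and the genotypes overlapped. Dlx2OE over WT gave a log2 fold change of 0.11 (SE 0.0921, 95% interval -0.11 to 0.32, adjusted p = 0.463). A change of Six5 of the size measured for Six2 lies outside this interval.

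Eya1 (ENSMUSG00000025932), on chromosome 1 from 14168954 to 14310235 on the reverse strand, is the gene mutated in branchio-oto-renal syndrome in humans. It had read counts of 1877, 2508 and 2441 (WT 1 to 3) against 1451, 2065 and 1237 (Dlx2OE 1 to 3). Dlx2OE samples 1 and 3 were below all WT samples, while Dlx2OE sample 2, at 65.8 CPM, slightly exceeded WT sample 1, at 64.1 CPM. On the log2 scale the difference was -0.49 (SE 0.162, 95% interval -0.86 to -0.12). Its unadjusted p was 0.0160 and its adjusted p 0.0967, so it did not pass, whereas DESeq2 gave an adjusted p of 0.0468. By DESeq2, 3 of the 9 members passed, against 13.4% of all genes tested there. By unadjusted edgeR p under 0.05 the same 3 members passed, against 29.5% of all genes.

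Eya2 (ENSMUSG00000017897), on chromosome 2 from 165595032 to 165771727 on the forward strand, encodes a coactivator of placodes and muscle progenitors. Its read counts were 810, 1929 and 1509 (WT 1 to 3) against 1259, 689 and 948 (Dlx2OE 1 to 3). Its pooled SD within genotypes on the log2 scale was the widest of the members, and the highest WT level was 2.31 times the lowest. WT sample 1 lay below Dlx2OE samples 1 and 3, and the genotypes overlapped. The log2 fold change of -0.50 (SE 0.325, 95% interval -1.24 to 0.25, adjusted p = 0.335) left both a fall beyond 1 and a small rise inside its interval.

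Eya3 (ENSMUSG00000028886), on chromosome 4 from 132638987 to 132724765 on the forward strand, is the most widely expressed member of its family. Reads counted on it were 3242, 3126 and 3133 (WT 1 to 3) against 3772, 3848 and 2892 (Dlx2OE 1 to 3). In CPM, Dlx2OE samples 1 and 2 exceeded all WT samples and Dlx2OE sample 3 fell between them, at 106.8 CPM. Its measured log2 fold change was 0.18 (SE 0.102, 95% interval -0.06 to 0.41, adjusted p = 0.273).

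Eya4 (ENSMUSG00000010461), on chromosome 10 from 23102963 to 23350786 on the reverse strand, is a deafness gene in humans. It had read counts of 4074, 3334 and 3243 (WT 1 to 3) against 1706, 2680 and 2007 (Dlx2OE 1 to 3). All Dlx2OE samples were below all WT samples, and both genotypes were spread, with WT sample 1 highest and Dlx2OE sample 1 lowest. Its mean was 117.9 ± 18.7 CPM in WT and was reduced to 72.3 ± 13.96 CPM (SD, n = 3 each). This was a log2 fold change of -0.71 (SE 0.169, 95% interval -1.09 to -0.32), with an adjusted p of 0.0490, just inside the threshold. The direction held in 14 of 14 alternatives but the call in 6 of them, and without a sample it was kept only where WT sample 3 was left out (adjusted p = 0.0408). Without Dlx2OE sample 3 the log2 fold change was -0.72 and the adjusted p 0.119. Without WT samples 1 and 2 in turn the adjusted p was 0.129 and 0.144, and without Dlx2OE samples 1 and 2 in turn it was 0.0548 and 0.0766. Eya4 equalled 4.16% ± 0.939 of the summed mesenchyme list in WT and 2.10% ± 0.366 in Dlx2OE samples (SD, n = 3 each), and the genotypes were apart.

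**Figure D2:**
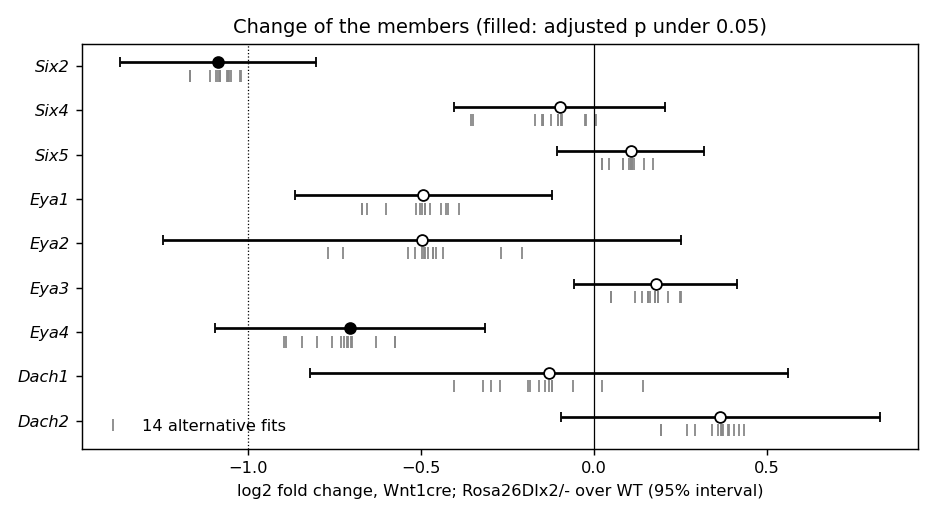
Log2 fold change of each member, Dlx2OE over WT, with its 95% interval from edgeR (circles) and the values under 14 alternative fits (grey ticks); the dotted line marks -1. Six2 at -1.09 and Eya4 at -0.71 are filled as past an adjusted p of 0.05, and the alternatives cross 0 for Six4 and Dach1.

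Dach1 (ENSMUSG00000055639), on chromosome 14 from 97786853 to 98169765 on the reverse strand, encodes the more abundant of the pair of Dach corepressors. Its read counts were 1051, 812 and 1330 (WT 1 to 3) against 544, 1092 and 1175 (Dlx2OE 1 to 3). Dlx2OE sample 1 had the lowest level, 18.4 CPM, and Dlx2OE sample 3 the highest, 43.4 CPM, so the Dlx2OE samples enclosed the whole WT range. It had a log2 fold change of -0.13 (SE 0.300, 95% interval -0.82 to 0.56, adjusted p = 0.793), and its sign turned without WT sample 3 (0.02) or without Dlx2OE sample 1 (0.14). The skeletal muscle, endothelial and Schwann and glial lists were also lowest in Dlx2OE sample 1, at 64.8, 217 and 93.2 CPM. The Schwann and glial list was also highest in Dlx2OE sample 3, at 316 CPM. The muscle list was highest in WT sample 2, at 209 CPM, and the endothelial list in WT sample 1, at 458 CPM. Their part in the level of Dach1 was not tested.

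Dach2 (ENSMUSG00000025592), on chromosome X from 113297510 to 113836386 on the forward strand, was the rarest member. Reads counted on it were 130, 108 and 134 (WT 1 to 3) against 146, 161 and 158 (Dlx2OE 1 to 3). All Dlx2OE levels, 4.93 to 5.83 CPM, were above all WT levels, 3.58 to 4.44 CPM. The difference did not pass (log2 fold change 0.37, SE 0.200, 95% interval -0.10 to 0.83, adjusted p = 0.256).

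Taking the members as a list, 6 were measured lower and 3 higher, with a median log2 fold change of -0.13 beside 0.0028 over all tested genes, of which 8707 were lower and 8807 higher. CPM values of the genotypes did not overlap for 3 of the 9, Six2, Eya4 and Dach2, and for 34.1% of all genes, so that share was near the background. The smallest p that an exact two-sided permutation test allows here, with 3 samples per genotype, is 0.1. The 2 members past an adjusted p of 0.05 are to be read against the 6.45% of all genes.

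The spread between samples of the same genotype differed among the members. On the log2 scale the pooled SD within genotypes was 0.56 for Eya2 and 0.51 for Dach1, larger than in 94.3% and 93.0% of 13225 genes with a mean log2 CPM of at least 1. It was 0.26 for Eya4 and 0.24 for Eya1, against a median of 0.17. Six2 at 0.15 was below that median, and Six5 was lowest at 0.078, with a smaller SD in only 7.21% of genes. Eya2 and Dach1 were therefore the members whose differences these samples could resolve least.

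Levels of different genes were compared only as CPM per kb of exon. In WT, Six2 stood at 126.7 ± 11.8 CPM per kb, above 98.2% of tested genes with an annotated length. It was followed by Six5 at 19.4 ± 1.44, Eya3 at 18.6 ± 0.931, Eya2 at 15.8 ± 6.15 and Eya4 at 12.5 ± 1.99 CPM per kb (SD, n = 3 each). Among these last 4 each neighboring pair overlapped, although every Eya4 sample was below every Six5 and Eya3 sample. Eya1 at 9.63 ± 1.27 CPM per kb was below every Eya4 sample, and Dach1 at 4.81 ± 1.08 and Six4 at 4.59 ± 0.449 CPM per kb overlapped each other below it. Dach2 was last at 0.416 ± 0.0466 CPM per kb, above 15.6% of genes.

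**Figure D3:**
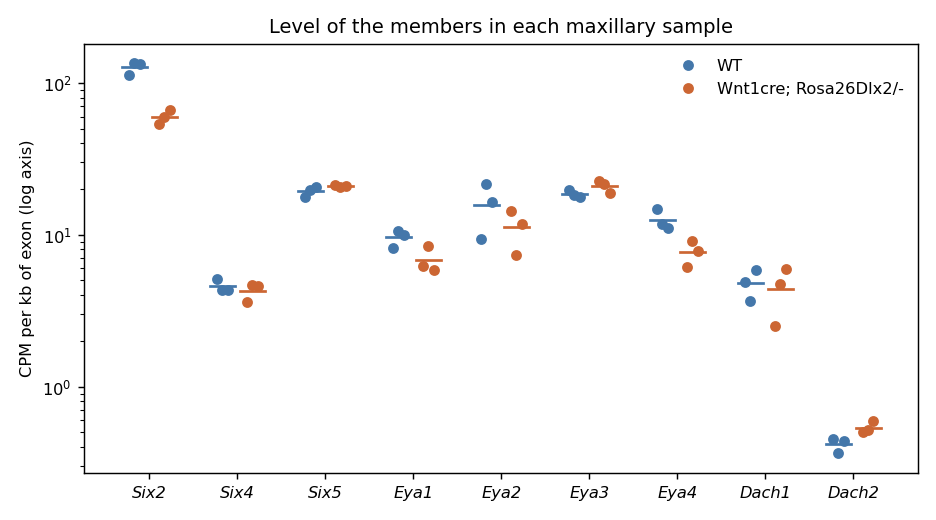
TMM-scaled CPM per kb of exon (log axis) of the 9 members in each of 3 WT and 3 Dlx2OE samples, with points for samples and bars for means. Six2 stood first in both genotypes, at means of 126.7 in WT and 59.7 in Dlx2OE, and the samples of the genotypes separated for Six2, Eya4 and Dach2.

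In Dlx2OE samples Six2 was still first, at 59.7 ± 6.47 CPM per kb. Eya3 at 21.1 ± 1.90 and Six5 at 20.8 ± 0.334 CPM per kb came next and overlapped. Eya2 at 11.2 ± 3.51, Eya4 at 7.68 ± 1.48, Eya1 at 6.85 ± 1.38, Dach1 at 4.397 ± 1.74 and Six4 at 4.29 ± 0.614 CPM per kb followed (SD, n = 3 each), and each neighboring pair among these 5 overlapped. Dach2 was again last, at 0.537 ± 0.0483 CPM per kb, below every sample of the other members.

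Within each library, the share of a gene in the sum of its family's members described here is independent of the scaling of the libraries. Six2 made up 83.2%, 84.9% and 84.2% of the sum of Six2, Six4 and Six5 in WT samples. In Dlx2OE samples it made up 68.4%, 70.2% and 72.3%, a difference of -13.8 percentage points without overlap. The share of Six5 went from 12.9% ± 0.410 to 24.7% ± 2.21 and that of Six4 from 3.08% ± 0.585 to 5.05% ± 0.488 (SD, n = 3 each), also without overlap. Each of the 3 differences had p = 0.1 in an exact two-sided permutation test, the smallest p that 3 against 3 samples allow, and 0.15 after Benjamini-Hochberg adjustment over the 9 shares tested. The summed level of these 3 genes was 150.7 ± 12.7 CPM per kb in WT and 84.9 ± 6.81 CPM per kb in Dlx2OE samples, without overlap.

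**Figure D4:**
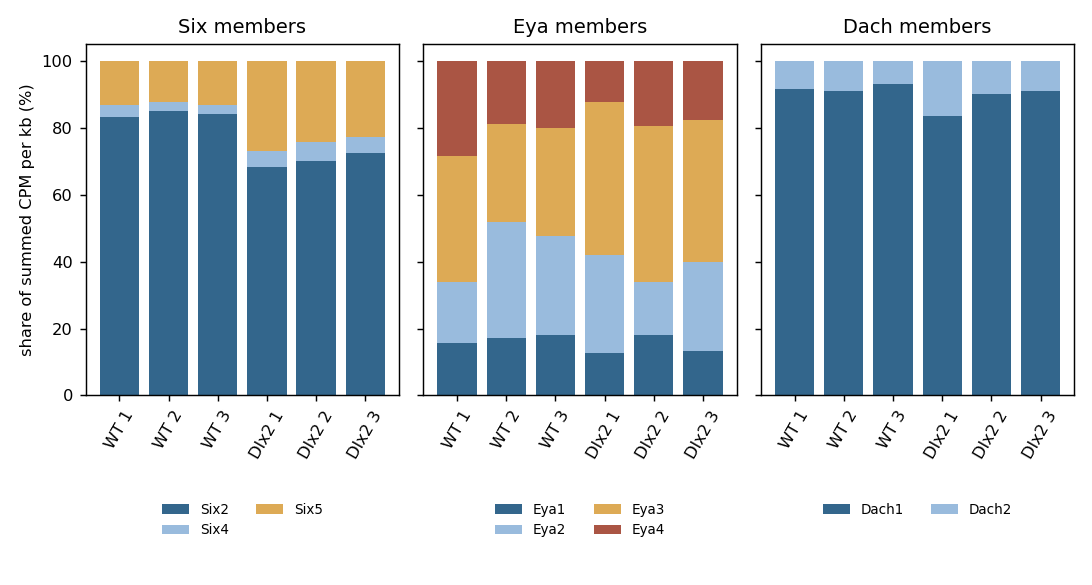
Share of each member in the summed CPM per kb of the family members described here (y axis, %), in each WT sample and each Dlx2OE sample (Dlx2 1 to 3). Six2 took 83.2% to 84.9% of its family in WT and 68.4% to 72.3% in Dlx2OE samples, and the Eya2 share varied between samples of both genotypes.

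Among the Eya genes the share of Eya3 went from 33.2% ± 4.23 to 45.0% ± 2.13 (SD, n = 3 each), without overlap. Its exact permutation p was 0.1, the smallest possible, and 0.15 after Benjamini-Hochberg adjustment. The share of Eya4 was 28.5%, 18.8% and 20.01% in WT and 12.4%, 19.5% and 17.7% in Dlx2OE samples, which overlapped (exact permutation p = 0.2). In CPM not divided by length, its shares of 40.7%, 30.6% and 31.4% in WT and 20.8%, 28.9% and 28.3% in Dlx2OE samples did not overlap (exact permutation p = 0.1). The shares of Eya1, 17.02% and 14.7%, and of Eya2, 27.4% and 23.9%, overlapped too (exact permutation p = 0.3 and p = 0.5). The summed level of the 4 Eya genes was 56.5 ± 5.34 CPM per kb in WT and 46.8 ± 2.42 CPM per kb in Dlx2OE samples, without overlap. Dach1 made up 91.9% ± 1.04 of the Dach sum in WT and 88.2% ± 4.14 in Dlx2OE samples, and Dlx2OE sample 1, at 83.4%, was lowest. The difference in the Dach1 share was -3.73 percentage points, and -1.35 without that sample. The genotypes did not overlap (exact permutation p = 0.1, and 0.15 after Benjamini-Hochberg adjustment). The shares in a family add up to 100%, so a fall of the share of Six2 or Eya4 raises those of its relatives.

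The other genes of the network were taken from a list of 48, of which 46 were tested. Over these 46 genes, 3 rose and 2 fell at an adjusted p under 0.05, beside the 6.45% of all genes called in either direction, with a median log2 fold change of -0.04. DESeq2 called 9 of the list, beside its 13.4% of all genes. Among the Pax factors, which act upstream of the network, 1 of 5 tested rose, 1 fell and 3 did not pass. Pax9, a factor of pharyngeal endoderm and of tooth and palate mesenchyme, had read counts of 2623, 2810 and 3662 (WT 1 to 3) against 1106, 1606 and 1404 (Dlx2OE 1 to 3). The genotypes did not overlap (log2 fold change -1.10, SE 0.161, adjusted p = 0.0141), and the call was lost in 1 of 14 alternatives, without WT sample 2 (adjusted p = 0.0657). Pax1, the paralog of Pax9, had read counts of 125, 374 and 204 (WT 1 to 3) against 4714, 1936 and 2842 (Dlx2OE 1 to 3). Its log2 fold change of 3.81 (SE 0.464, adjusted p = 0.00939) was the greatest in size among the network genes tested, with means of 7.74 ± 4.20 and 108.6 ± 48.8 CPM (SD, n = 3 each). Pax1 passed in 14 of 14 alternatives, with 3.83 (adjusted p = 0.0175) without Dlx2OE sample 3.

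Among 18 cofactors, corepressors and chromatin partners, 2 rose and 0 fell by edgeR. Those with an unadjusted p under 0.05 were 5 higher and 2 lower, and DESeq2 called 3 higher and 1 lower. Of all genes, 29.5% had an unadjusted p under 0.05 and DESeq2 called 13.4%. Tle3, a Groucho corepressor that Six-family proteins can recruit, went from 166.4 ± 11.2 to 248.6 ± 24.1 CPM (SD, n = 3 each; log2 fold change 0.58, SE 0.112, adjusted p = 0.0298). Crebbp, the histone acetyltransferase CBP, went from 91.5 ± 12.5 to 142.7 ± 16.4 CPM (SD, n = 3 each; log2 fold change 0.64, SE 0.133, adjusted p = 0.0348). The correction for gene length and GC content lowered these values, to 0.23 for Tle3 (adjusted p = 0.354) and 0.27 for Crebbp (adjusted p = 0.168), so that neither passed. Both calls were also lost without WT sample 1 or 2 or Dlx2OE sample 2 or 3, with adjusted p from 0.065 to 0.132 for Tle3 and from 0.0659 to 0.149 for Crebbp.

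Among 17 genes known as targets of the network, 0 rose and 1 fell by edgeR's test, and DESeq2 called 2 lower. Tbx1, a T-box gene of the pharyngeal arches, had read counts of 525, 747 and 896 (WT 1 to 3) against 275, 361 and 396 (Dlx2OE 1 to 3), without overlap (log2 fold change -1.01, SE 0.226, adjusted p = 0.0416). The call of Tbx1 was kept without Dlx2OE sample 1 and lost without any of the other samples, with adjusted p from 0.0534 (without Dlx2OE sample 3) to 0.153 (without WT sample 2). The median log2 fold change over the 17 was -0.25, and at an unadjusted p under 0.05 there were 1 higher and 5 lower, beside 29.5% of all genes in either direction. Of the 4 Eya phosphatase and signalling partners 0 passed by edgeR or DESeq2, and 0 had an unadjusted p under 0.05. The most abundant, Gnai2, a G protein subunit that can bind Eya2, was at 312.2 ± 37.7 CPM in WT and 274.5 ± 28.6 CPM in Dlx2OE samples (SD, n = 3 each; adjusted p = 0.372).

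**Figure D5:**
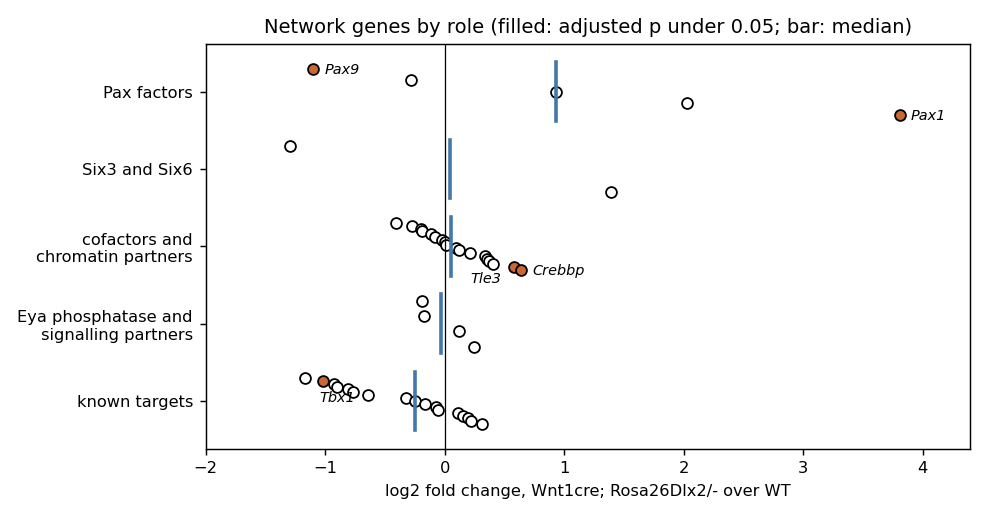
Log2 fold change, Dlx2OE over WT, of 46 tested network genes grouped by role, with filled circles for an adjusted p under 0.05 and a bar for the median of each role. Pax1 at 3.81, Tle3 at 0.58 and Crebbp at 0.64 rose, and Pax9 at -1.10 and Tbx1 at -1.01 fell.

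The eye-field genes Six3 and Six6 belong to the same homeodomain family as Six2. Six3 had read counts of 184, 719 and 418 (WT 1 to 3) against 419, 46 and 57 (Dlx2OE 1 to 3), and it did not pass (log2 fold change -1.30, SE 0.836, adjusted p = 0.328). In CPM, WT sample 2 was highest and Dlx2OE sample 2 lowest for both Six3 and Eya2. The surface epithelium sum was 662, 1178 and 893 CPM in WT and 1654, 531 and 525 CPM in Dlx2OE samples. Its part in the level of Eya2 was not tested.

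The genes whose centred log2 CPM profiles over the 6 samples lay nearest to that of Six2, among 13224 genes, were Tgm2 (Euclidean distance 0.193), Cobl (0.229) and Snord104 (0.243). Tgm2, the tissue transglutaminase, had 9.43, 9.79 and 10.6 CPM in WT and 3.81, 4.55 and 4.76 CPM in Dlx2OE samples. The nearest to Eya4 were Serpinf1 (0.172), Fam216a (0.210) and Maged2 (0.211). Serpinf1, which encodes the secreted factor PEDF, had 98.4, 85.6 and 81.1 CPM in WT and 47.6, 64.3 and 54.7 CPM in Dlx2OE samples, and like Eya4 it was highest in WT sample 1 and lowest in Dlx2OE sample 1. These genes were picked for likeness in the same 6 libraries, so the likeness is a description.

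Genes annotated within 100 kb of the members were examined for changes shared by a region. Of 11 genes around Six2, 2 were tested and 0 passed, Six3 being 1 of them, 54974 bp away, and the 1 gene around Eya4 was not tested. Of 16 genes around Six5, 12 were tested and 0 passed. Of 8 genes around Eya3 and 5 around Eya2, 6 and 3 were tested and 0 passed, and 0 of the 3 genes near each of Eya1, Dach1 and Dach2 were tested. Around Six4, 1 of 2 tested genes passed, Mnat1, which encodes an assembly factor of the CDK-activating kinase and begins 10260 bp away (log2 fold change -0.56, SE 0.1197, adjusted p = 0.0378). Of the 23 tested genes around the other 8 members, 5 had an unadjusted p under 0.05 and DESeq2 called 1, beside 29.5% and 13.4% of all genes. The genes around Six4, where a neighbor passed, are left out of these counts, so they do not give the share over all neighbors.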

How the data were processed

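RNA-seq counts of 6 maxillary samples, 3 per genotype (WT and Wnt1cre; Rosa26Dlx2/-), were used. The authors made poly-A libraries, trimmed adaptors and poor-quality sequence, aligned to mm10 using STAR 2.7.3a, counted reads per gene with htseq-count (HTSeq 0.12.4, union mode), and deposited raw counts without normalization. The submitters' processing notes also name FastQC. The annotation release and strand setting of the counting are not given in the sources used here. Genotype and replicate number came from the sample labels, and 0 columns of per-sample values were left unused.

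Symbols, positions and exon lengths came from GENCODE M21 (GRCm38), which held 53706 of the 53801 identifiers. Genes were kept with filterByExpr (minimum count 10), scaled by TMM and tested with the quasi-likelihood F test of edgeR 4.0.16 in R 4.3.3, with genotype as the only term and Benjamini-Hochberg adjustment over 17514 genes. Levels are TMM-scaled CPM, divided by exon length in kb where genes are compared with each other. Log2 CPM used a prior count of 2. In simulated counts with 200 genes changed by 2 on the log2 scale, edgeR called 204 of 17288 genes, of which 12 were false, and found 96% of those changed. Shares of a family were compared with exact two-sided permutation tests. The alternatives were DESeq2 1.42.0, RLE factors, library size alone, no filter, 10 counts in every sample, a replicate block, a loess correction for length and GC content (span 0.5), both together, and the removal of each sample.

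The members, the network list, the marker lists and the tests were chosen with earlier results of these data known. All 9 members are named. Network genes are named at an adjusted p under 0.05, and otherwise the most abundant gene of a role. For each member at that threshold the 3 genes with the nearest profile are named, and genes within 100 kb are named at an adjusted p under 0.05. Some genes are not reported here. The ratio to the mesenchyme list and the ranks of spread and level were added after the data were seen. Counting intervals and floors cover counting error only, and the floor was 3 counts per library, or 0.0955 to 0.111 CPM. Promoter windows came from RefSeq (GRCm38.p6). Figures were drawn with matplotlib 3.10.9.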

Additional observations from a re-analysis of the deposited data

How the results depend on the processing

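With 2 members past an adjusted p of 0.05 in the reported fit, 1 passed with library size alone and 1 with the replicate block, and the counts without single samples ranged from 1 to 2. The member lost was Eya4, at an adjusted p of 0.0596 with library size alone, 0.0810 with the replicate block and 0.0607 with the block and the length and GC correction, under which Eya1 passed at 0.04999. Six2 alone passed the fold-change threshold in every fit. Signs turned without single samples for Six4 (-0.17 to 0.0069), Dach1 (-0.40 to 0.14) and the Eya2 share (-8.25 to 0.445 percentage points). The length and GC correction gave log2 fold changes of -0.35 for Six4, -0.66 for Eya1, -0.90 for Eya4 and -0.27 for Dach1. It gave 0.024 for Six5, 0.049 for Eya3 and 0.19 for Dach2, and -1.05 for Six2 and -0.46 for Eya2. The median over all tested genes was -0.066 with that correction. In CPM not divided by length, the difference of the Six2 share was -17.6 and that of the Six4 share 6.36 percentage points. Of the network list 5 genes passed, against 9 by DESeq2, 3 with the block and the length and GC correction, and 1 to 9 without single samples. Over all genes 1130 passed, against 2459 by DESeq2, 2044 without a filter, 723 with the length and GC correction, 302 with that correction and the block, and 79 to 2091 without single samples. With the fold-change threshold 546 passed, against 894, 1003 and 183 by DESeq2, without a filter and with the block and correction, and 74 to 1173 without single samples. The causes were not tested. Samples with the same replicate number did not deviate together (correlations -0.0718, -0.211 and 0.0731), so the numbers were not taken as pairs. Depth was not varied here.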

Other observations

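The study's tool, DESeq2, passed 9 of the network genes, and the 4 that edgeR did not pass were looked at after their values were seen. Pax3, a neural crest and muscle progenitor factor, had read counts of 325, 145 and 544 (WT 1 to 3) against 2148, 1227 and 668 (Dlx2OE 1 to 3), without overlap (log2 fold change 2.03, SE 0.508, adjusted p = 0.0544 by edgeR and 0.0225 by DESeq2). Igfbp5, a binding protein of insulin-like growth factors, was at 2445 ± 548.3 CPM in WT and 1290 ± 285.9 CPM in Dlx2OE samples (SD, n = 3 each; log2 fold change -0.92, SE 0.237, adjusted p = 0.0570 by edgeR and 0.000254 by DESeq2). Skil, a Ski relative of the Dach proteins, was at 95.5 ± 6.97 and 72.1 ± 9.02 CPM and Ncor1, a nuclear receptor corepressor, at 225.1 ± 22.7 and 291.3 ± 3.63 CPM (SD, n = 3 each), also without overlap.

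Pax6, which acts with Six3 in the eye field, and Ezr, which encodes the membrane linker ezrin, were also looked at after their values were seen. Pax6 had read counts of 29, 266 and 205 (WT 1 to 3) against 234, 83 and 80 (Dlx2OE 1 to 3), and Ezr had read counts of 2270, 4460 and 3704 (WT 1 to 3) against 2948, 1387 and 1435 (Dlx2OE 1 to 3). Like Eya2 and Six3, both were highest in WT sample 2. The genotypes overlapped for both, and neither passed the test by edgeR (adjusted p = 0.811 for Pax6 and 0.151 for Ezr).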
